A study of Homo sapiens with 6 samples.

Results

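The genes described are those of the nuclear lamina and of the chromatin proteins whose levels are followed in studies of cellular senescence. They were taken by name and comprise the B-type lamins LMNB1 and LMNB2, the A-type lamin LMNA, the inner nuclear membrane genes LBR and TMPO, the high-mobility-group genes HMGB1, HMGB2, HMGA1 and HMGA2, and GLB1, which encodes lysosomal beta-galactosidase. These are 10 of the 55765 gene symbols of the RNA-Seq count tables, and 9 of them had enough counts to be tested. RNA-Seq was carried out on C4-2 cells, a castration-resistant subline of the androgen-sensitive prostate cancer line LNCaP that was grown with 5% fetal bovine serum. In 1 group, 3 cultures received the solvent DMSO, and in the other, 3 cultures received R1881 (methyltrienolone), a stable androgen receptor agonist, at 1 nM, which is a supraphysiological androgen level (SAL). Both groups were harvested after 72 h, and the replicate numbers 1 to 3 link a DMSO library with a SAL library. All 6 libraries come from this single cell line, which also carries the mutated androgen receptor of LNCaP, and the study describes the repeats as independent.

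Lamins are intermediate filament proteins that form a meshwork under the inner nuclear membrane, where they anchor chromatin and give the nucleus its shape. The B-type lamins keep a lipid anchor in the membrane, lamin A loses it during maturation, and LBR (the lamin B receptor) and the LAP2 proteins made from TMPO bind lamins and chromatin. Loss of lamin B1, redistribution or loss of HMGB proteins and a rise in beta-galactosidase activity at a weakly acidic pH are widely used as signs of cellular senescence, and HMGA proteins are known as components of heterochromatin foci in some senescent cells.

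Promoters were searched for CCAAT boxes and cell cycle elements, which are typical of genes that follow the cell cycle, and for androgen response elements, which are typical of genes bound by the receptor. Printed are the promoters of those called members that hold a CCAAT match. LMNB2 and LBR, also called lower, had none, and HMGA1, which was not called, had a match in both of its windows. Windows from 250 bases before to 50 bases after the annotated start were taken from RefSeq (GRCh38.p14), which had 15 windows for 8 of the 10 members. The window with the most CCAAT matches is printed for LMNB1 (chr5:126776886-126777185, plus strand), TMPO (chr12:98515323-98515622, plus strand), HMGB1 (chr13:30465887-30466186, minus strand) and LMNA (chr1:156082323-156082622, plus strand), each from 5′ to 3′ along its gene. Capitals mark CCAAT or its reverse complement ATTGG, and in LMNA also the E2F-type match TTTCCCGC.
LMNB1: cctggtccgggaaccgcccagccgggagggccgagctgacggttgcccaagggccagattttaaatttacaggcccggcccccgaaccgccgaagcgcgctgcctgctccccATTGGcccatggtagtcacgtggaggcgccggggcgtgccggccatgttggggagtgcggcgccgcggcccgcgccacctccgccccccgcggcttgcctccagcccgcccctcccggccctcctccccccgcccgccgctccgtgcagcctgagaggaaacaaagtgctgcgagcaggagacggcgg
TMPO: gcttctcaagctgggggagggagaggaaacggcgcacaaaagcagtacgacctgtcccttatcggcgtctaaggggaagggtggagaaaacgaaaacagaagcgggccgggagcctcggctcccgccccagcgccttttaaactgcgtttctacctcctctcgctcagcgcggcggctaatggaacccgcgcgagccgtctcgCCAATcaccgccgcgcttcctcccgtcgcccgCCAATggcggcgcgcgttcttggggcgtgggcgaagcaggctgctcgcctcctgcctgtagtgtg
HMGB1: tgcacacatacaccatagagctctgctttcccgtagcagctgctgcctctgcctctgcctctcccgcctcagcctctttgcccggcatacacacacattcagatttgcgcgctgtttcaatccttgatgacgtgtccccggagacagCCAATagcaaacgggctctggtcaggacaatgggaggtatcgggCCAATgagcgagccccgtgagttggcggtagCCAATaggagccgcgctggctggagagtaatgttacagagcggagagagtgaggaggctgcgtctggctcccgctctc
LMNA: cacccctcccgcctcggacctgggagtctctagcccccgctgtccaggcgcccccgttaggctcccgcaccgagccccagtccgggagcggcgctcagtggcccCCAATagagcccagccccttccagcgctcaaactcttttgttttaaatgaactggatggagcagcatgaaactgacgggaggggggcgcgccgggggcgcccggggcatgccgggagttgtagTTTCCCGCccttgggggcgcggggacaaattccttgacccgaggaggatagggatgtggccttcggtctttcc

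Counted from the annotated start at 0, the LMNB1 window had a CCAAT match at -138, the TMPO window had matches at -47 and -15, and the HMGB1 window had matches at -103, -59 and -28. In the LMNA window the CCAAT match began at -146 and the E2F-type match at -23. On either strand, CCAAT was found in 8 of the 15 windows (53.3%), in 5 of the 8 members, against 34.6% of all 35116 windows of the table. The letters TTTGAA of the cell cycle element were found in 2 windows, those of LMNB2 and of another HMGB1 start, against 15.2% of all windows. Both matches were at -246, at the far 5′ edge of the window. The E2F-type letters (TTTCCCGC, TTTCGCGC, TTTGCCGC or TTTGGCGC) were found in the LMNA window alone among the 15, against 3.3% of all windows. The androgen response element unit AGAACA was found in 1 window, at -177 of another LMNA start, against 14.8% of all windows, and the full palindromic element, with a unit on each side of 3 free bases, in none of the 15 and in 1 of all windows. The unit AGAACA is contained in the full element and no other motif contains another. Members with several starts had more windows in which a match could occur. The 2 TMPO windows overlap and hold the same 2 CCAAT matches, so that these sites are counted in both windows. The windows to print were chosen after the values were seen.

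The libraries held between 7864471 and 12532355 counts on genes, of which rRNA genes took 11.9% to 27.8%, and between 6931042 and 9776990 counts remained without them. Levels are given as CPM, counts scaled to a common library size that was set by the trimmed mean of M-values (TMM). All 8 luminal prostate epithelial markers examined had counts in every library. Of 13 markers of basal, stromal, endothelial and white blood cells, 5 were at 0 in every library (KRT5, COL1A2, PTPRC, CD3E and CDH5), and their summed level was between 3.33 and 15.04 CPM. In these bulk samples, fewer cells of a kind and less RNA per cell cannot be told apart.

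After SAL treatment, 5 of the 9 tested members were lower (LMNB1, LMNB2, LBR, TMPO and HMGB1), 1 was higher (LMNA) and 3 did not pass the threshold (HMGB2, HMGA1 and GLB1). Over all 16835 genes tested, 9.37% were lower and 11.5% were higher at an adjusted p under 0.05 with the quasi-likelihood test of edgeR, which compares SAL with DMSO within the replicate numbers. The median log2 fold change was -0.42 over the tested members and -0.0011 over all genes. All calls on members rest on the replicate numbers as a block, since without it 0 of the 9 members passed either the adjusted threshold or an unadjusted p under 0.05, and 21 genes were called in all. The log2 fold change of LMNB1 was -0.74 with the block and -0.76 without it.

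**Figure D1:**
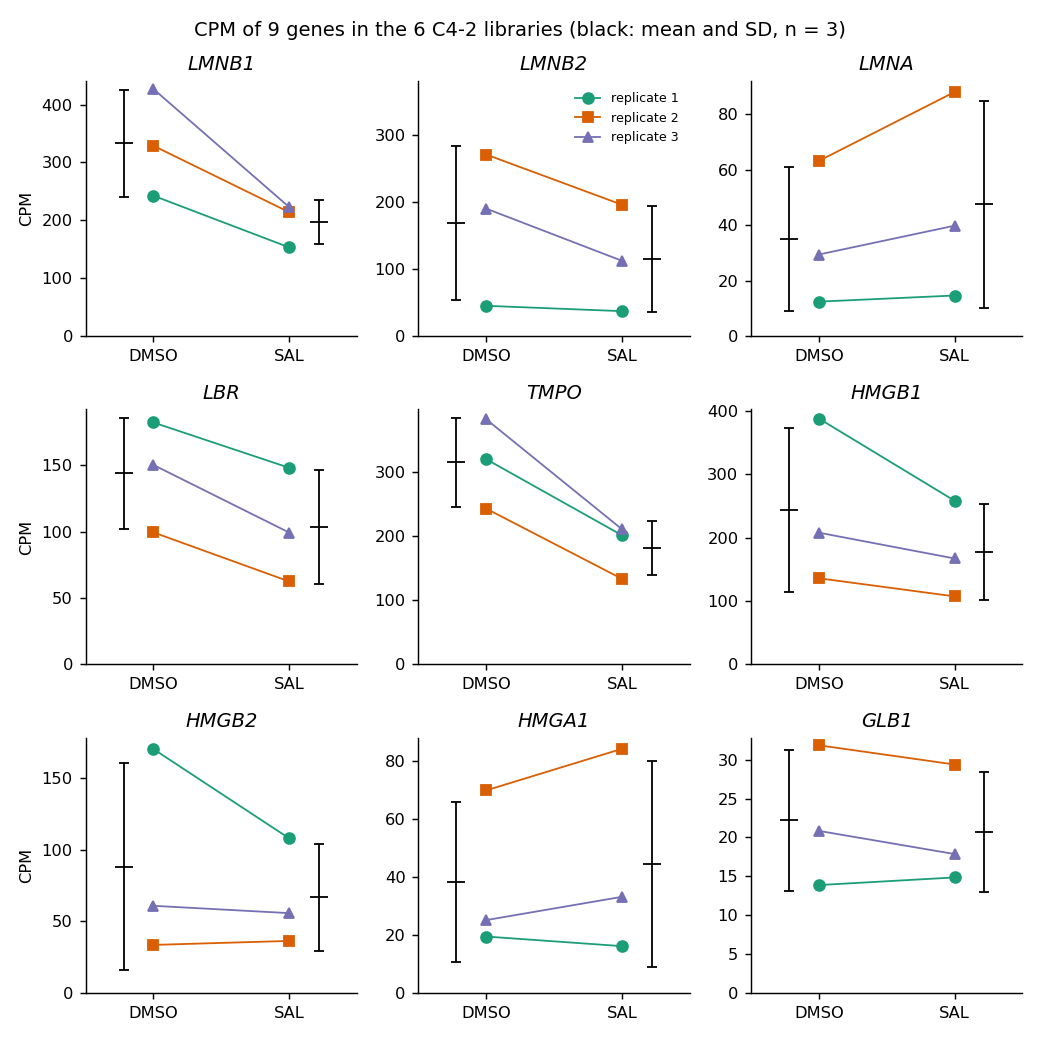
CPM of the 9 tested genes (vertical axis from 0) in the DMSO and SAL libraries of each replicate number, joined by a line; black bars show the mean and SD of 3 libraries. LMNB1 and TMPO are lower in every SAL library than in any DMSO library. For LMNB2, LMNA, LBR, HMGB1, HMGB2, HMGA1 and GLB1 the replicate numbers lie farther apart than the treatments.

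LMNB1 (ENSG00000113368.12, GRCh37 chromosome 5 from 126112315 to 126172712, plus strand) encodes lamin B1. It had 242.6, 329.0 and 427.2 CPM in DMSO libraries 1, 2 and 3 and 153.3, 214.1 and 223.0 CPM in SAL libraries 1, 2 and 3. The groups did not overlap, and SAL library 3, the highest of its group, was still under the lowest DMSO library. The mean was 333 ± 92.4 CPM in DMSO and 197 ± 37.9 CPM in SAL (SD, n = 3). LMNB1 was down-regulated to 59.9% of the DMSO level, with a log2 fold change of -0.74 ± 0.10 (SE, 95% interval -0.95 to -0.53, edgeR adjusted p = 5.01e-05). The within-pair differences were -0.66, -0.62 and -0.94.

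LMNB2 (ENSG00000176619.13, chromosome 19 from 2427636 to 2456957, minus strand) encodes the other B-type lamin. Its level was 45.0, 270.5 and 189.9 CPM in the DMSO libraries and 37.01, 195.7 and 112.1 CPM in the SAL libraries. Both libraries of replicate 1 were far under the others, so that the groups overlapped, but each SAL library was lower than its DMSO partner. LMNB2 was down-regulated with a log2 fold change of -0.52 ± 0.11 (SE, edgeR adjusted p = 0.00249). The within-pair differences were -0.28, -0.47 and -0.76, and without replicate 3 the change of -0.38 did not pass the threshold (edgeR adjusted p = 0.226).

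The CPM of every SAL library was below that of every DMSO library for 2 of the 9 members, LMNB1 and TMPO, and for 3.73% of all genes tested. The within-library ratio of LMNB1 to LMNB2, on the log2 scale with 0.5 added to each CPM, was 1.29 ± 1.07 in DMSO and 1.05 ± 0.95 in SAL (SD, n = 3). Its difference of -0.24 had p = 0.7 in a two-sided exact permutation test, which cannot go below 0.1 with 3 against 3 libraries. This test does not use the pairing. The ratio was lower in SAL within all 3 pairs, by 0.38, 0.15 and 0.18, with p = 0.25 in an exact sign-flip test, the smallest that 3 pairs allow.

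LMNA (ENSG00000160789.24, chromosome 1 from 156052364 to 156109872, plus strand) encodes lamin A and, by alternative splicing, lamin C, which gene counts do not separate. It had 12.4, 63.2 and 29.4 CPM in DMSO and 14.6, 88.0 and 39.8 CPM in SAL. The order of the replicate numbers was the same in both groups, with replicate 1 lowest and replicate 2 highest, and the groups overlapped. Within each pair the SAL library was higher, by 0.23, 0.48 and 0.43 on the log2 scale. LMNA was up-regulated with a log2 fold change of 0.41 ± 0.11 (SE, 95% interval 0.16 to 0.65, edgeR adjusted p = 0.0190), a level of 132% of DMSO. DESeq2 with the same block gave 0.39 with an adjusted p of 0.120, and the call was also lost without replicate 2 (edgeR adjusted p = 0.161) and without replicate 3 (edgeR adjusted p = 0.25).

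The ratio of LMNB1 to LMNA, which sets a B-type against an A-type lamin inside a library, was 18.9, 5.17 and 14.3 in DMSO and 10.2, 2.42 and 5.55 in SAL. It was lower in SAL within every pair, although the replicate numbers spread more widely than the treatments. On the log2 scale the difference was -1.12, from 3.48 ± 0.98 in DMSO to 2.37 ± 1.04 in SAL (SD, n = 3), with p = 0.3 in the two-sided exact permutation test. The within-pair differences of -0.89, -1.09 and -1.37 had p = 0.25 in an exact sign-flip test, the smallest that 3 pairs allow.

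Per kilobase of canonical transcript, LMNA made up 3.997%, 10.4% and 4.67% of the summed lamin level in the DMSO libraries. In the SAL libraries its share was 7%, 19.2% and 11.0%. LMNB1 made up most of the lamin level in each library, from 59.3% to 86.1% in DMSO and from 51.4% to 80.8% in SAL. The share of LMNB2 was between 9.95% and 30.4% in DMSO and between 12.2% and 29.3% in SAL. These shares depend on the length used. By canonical transcript, the mean DMSO level per kilobase was 11.0 CPM for LMNA, 115 for LMNB1 and 36.3 for LMNB2. With the length of all merged exons of a gene it was 4.30, 91.6 and 31.2 CPM.

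**Figure D2:**
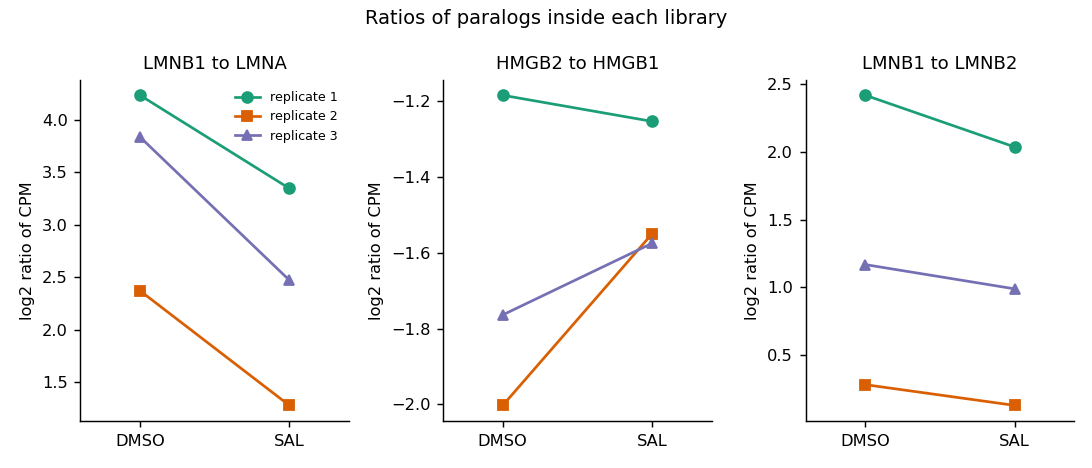
Log2 ratios of CPM inside each library (vertical axes, not starting at 0) for LMNB1 to LMNA, HMGB2 to HMGB1 and LMNB1 to LMNB2, joined within a replicate number. The LMNB1 to LMNA ratio is lower under SAL in all 3 pairs, by 0.89 to 1.37 on the log2 scale, while the HMGB2 to HMGB1 ratio moves in different directions.

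TMPO (ENSG00000120802.14, chromosome 12 from 98909357 to 98944129, plus strand) encodes the LAP2 (lamina-associated polypeptide) proteins, of which the membrane-bound forms bind B-type lamins and the nucleoplasmic alpha form binds lamin A. It had 319.6, 242.7 and 381.9 CPM in DMSO and 201.3, 133.4 and 210.7 CPM in SAL, so that no SAL library reached the lowest DMSO library. TMPO was down-regulated to 57.6% of the DMSO level, with a log2 fold change of -0.80 ± 0.09 (SE, 95% interval -0.99 to -0.60, edgeR adjusted p = 1.64e-05). The pairs differed by -0.67, -0.86 and -0.86. An antisense gene, TMPO-AS1, shares 646 bp of exon with TMPO. Since strand was not used in counting, reads that lie wholly in exons of both cannot be told apart and were counted for neither. The counts of TMPO-AS1, between 12 and 55 in each library against 1217 to 2858 for TMPO, leave out such reads.

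LBR (ENSG00000143815.15, chromosome 1 from 225589204 to 225616627, minus strand) binds lamin B and heterochromatin protein 1 and also has sterol reductase activity. Its level was 182.1, 99.4 and 150.2 CPM in DMSO and 148.0, 62.5 and 99.3 CPM in SAL. The groups overlapped, with replicate 1 highest and replicate 2 lowest in both. LBR was down-regulated with a log2 fold change of -0.52 ± 0.10 (SE, edgeR adjusted p = 0.00170), and the pairs differed by -0.30, -0.67 and -0.60. Without replicate 3 the change of -0.48 was not called (edgeR adjusted p = 0.115).

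**Figure D3:**
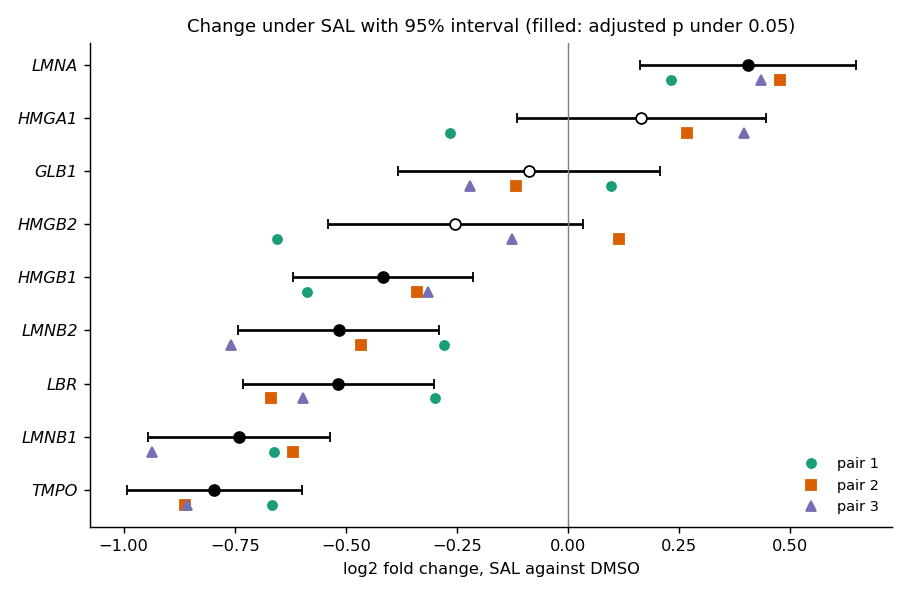
Log2 fold change of SAL against DMSO (horizontal axis) with its 95% interval for the 9 tested genes; filled circles passed an adjusted p of 0.05, and coloured symbols are the differences within pairs. TMPO and LMNB1 lie lowest at -0.80 and -0.74, LMNA alone is called higher at 0.41, and the intervals of HMGB2, HMGA1 and GLB1 cross 0.

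HMGB1 (ENSG00000189403.15, chromosome 13 from 31030841 to 31191734, minus strand) encodes a DNA-bending protein of chromatin that also acts as an alarm signal outside cells. It had 387.4, 135.8 and 207.6 CPM in DMSO and 257.9, 107.2 and 167.0 CPM in SAL. Replicate 1 was highest in both groups and the groups overlapped, but each SAL library was lower than its partner, by 0.59, 0.34 and 0.31 on the log2 scale. HMGB1 was down-regulated with a log2 fold change of -0.42 ± 0.10 (SE, edgeR adjusted p = 0.00536). Without replicate 3 the change was -0.47 and did not pass the threshold (edgeR adjusted p = 0.127).

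The HMGB1 value is uncertain because the tables also hold 42 pseudogene rows of this gene, 26 of them with counts. Together they held 31.4% to 45.5% of the counts given to HMGB1 and its pseudogenes in a library. The highest of them, HMGB1P5, had 1964, 235 and 527 counts in DMSO and 1112, 450 and 467 in SAL, with a log2 fold change of -0.20 (edgeR adjusted p = 0.727). With all these rows summed into HMGB1 the change was -0.29 and was not called (edgeR adjusted p = 0.0552).

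HMGB2 (ENSG00000164104.12, chromosome 4 from 174252527 to 174255583, minus strand) encodes a paralog of HMGB1. It had 170.2, 33.5 and 60.8 CPM in DMSO and 108.0, 36.3 and 55.7 CPM in SAL. Replicate 1 held the highest value of each group, and the pairs differed in direction, with -0.66, 0.11 and -0.13 on the log2 scale. The log2 fold change was -0.25 ± 0.13 (SE, 95% interval -0.54 to 0.04, edgeR adjusted p = 0.213). Without replicate 2, the pair in which SAL was higher, it was called lower at -0.43 (edgeR adjusted p = 0.0442), and without replicate 1 it was -0.02 (edgeR adjusted p = 0.947). The log2 ratio of HMGB2 to HMGB1 was -1.65 ± 0.42 in DMSO and -1.46 ± 0.18 in SAL (SD, n = 3), and the difference of 0.19 had p = 0.5 in the two-sided exact permutation test. The within-pair differences of -0.07, 0.45 and 0.19 had p = 0.5 in the exact sign-flip test.

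HMGA1 (ENSG00000137309.21, chromosome 6 from 34204650 to 34214008, plus strand) encodes proteins that bind AT-rich DNA through AT hooks. It had 19.5, 69.9 and 25.1 CPM in DMSO and 16.1, 84.2 and 33.1 CPM in SAL. Replicate 2 was highest in both groups, and SAL was lower in pair 1 and higher in pairs 2 and 3. The log2 fold change was 0.17 ± 0.13 (SE, 95% interval -0.11 to 0.44, edgeR adjusted p = 0.423), and without replicate 1 it was called higher at 0.32 (edgeR adjusted p = 0.0385). It was 0.08 without replicate 2 and 0.04 without replicate 3 (edgeR adjusted p = 0.815 and 0.946).

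HMGA2 (ENSG00000149948.14, chromosome 12 from 66218240 to 66360071, plus strand), the related gene that is known from embryonic cells and tumours, had 0 counts in 5 libraries and 1 count in SAL library 2. In the 5 libraries at 0, the limit that a count of 0 allows, 3 counts, corresponds to between 0.370 and 0.410 CPM, so that HMGA2 mRNA was not detectable at this depth and no fold change is given. This limit covers counting error alone. Of 5 genes for proteins known to act on HMGA2 mRNA directly or through let-7 microRNAs, LIN28B was at 0 in every library, LIN28A and IGF2BP1 had too few counts for a test, and IGF2BP2 had a mean of 1.10 CPM in DMSO and 1.66 CPM in SAL. IGF2BP3 had 29.0 ± 3.02 CPM in DMSO and 37.3 ± 6.23 CPM in SAL (SD, n = 3), and it rose with a log2 fold change of 0.35 (edgeR adjusted p = 0.0403). The change of IGF2BP3 did not pass with DESeq2 (adjusted p = 0.21) or in edgeR without replicate 1, 2 or 3 (adjusted p = 0.0538, 0.0571 and 0.397).

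GLB1 (ENSG00000170266.16, chromosome 3 from 33038101 to 33138694, minus strand) encodes the enzyme behind the beta-galactosidase stain of senescent cells. Its level was 13.9, 31.9 and 20.8 CPM in DMSO and 14.9, 29.4 and 17.9 CPM in SAL. The groups overlapped over most of their range, and SAL was higher in pair 1 and lower in pairs 2 and 3. The log2 fold change was -0.09 ± 0.14 (SE, 95% interval -0.38 to 0.21, edgeR adjusted p = 0.717), so that the interval of the mRNA level under SAL ran from 0.767 to 1.15 times that of DMSO. GLB1 shares 253 bp of exon with TMPPE on the same strand, and TMPPE had a log2 fold change of -0.01 (edgeR adjusted p = 0.986).

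Levels can be compared between members only per length. In DMSO, the mean CPM per kilobase of canonical transcript was 115 for LMNB1, 76.1 for TMPO, 61.2 for HMGB2, 44.7 for HMGB1, 38.4 for LBR, 36.3 for LMNB2, 19.9 for HMGA1, 11.0 for LMNA and 8.80 for GLB1. The ranges over the 3 DMSO libraries of each pair of neighbours in this order overlapped. Inside the libraries, LMNB1 was above TMPO and HMGA1 above LMNA in all 6, while the order of the other neighbours was not the same in all 6. In SAL the same measure was 68.1 for LMNB1, 43.96 for TMPO and 46.3 for HMGB2, and the order of the other members was as in DMSO. With the length of all merged exons instead, LMNB2 stood before LBR and GLB1 before LMNA in DMSO.

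The members also varied with the replicate number, in a pattern that ran with the GC content of their transcripts. Averaged over both groups, the deviation of replicate 1 from the group means was -1.44 for LMNB2, -1.26 for LMNA and -0.93 for HMGA1 on the log2 scale, and these transcripts have a GC content of 61.1% to 61.6%. It was 0.72 for HMGB1, 1.06 for HMGB2 and 0.49 for LBR, with a GC content of 37.8% to 39.4%. Replicate 2 deviated the opposite way for each of these 6 genes. The range over the replicate numbers was 2.49 for LMNB2 and 2.45 for LMNA, but 0.68 for LMNB1 and 0.66 for TMPO, the pair of genes whose groups did not overlap. The part of GC content in the calls was examined with a correction of each library for GC content and transcript length within the block. Under it, 5 members were lower and 1 was higher as before, with LMNA at 0.30 (edgeR adjusted p = 0.0430), LMNB1 at -0.75 and HMGA1 at 0.04.

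**Figure D4:**
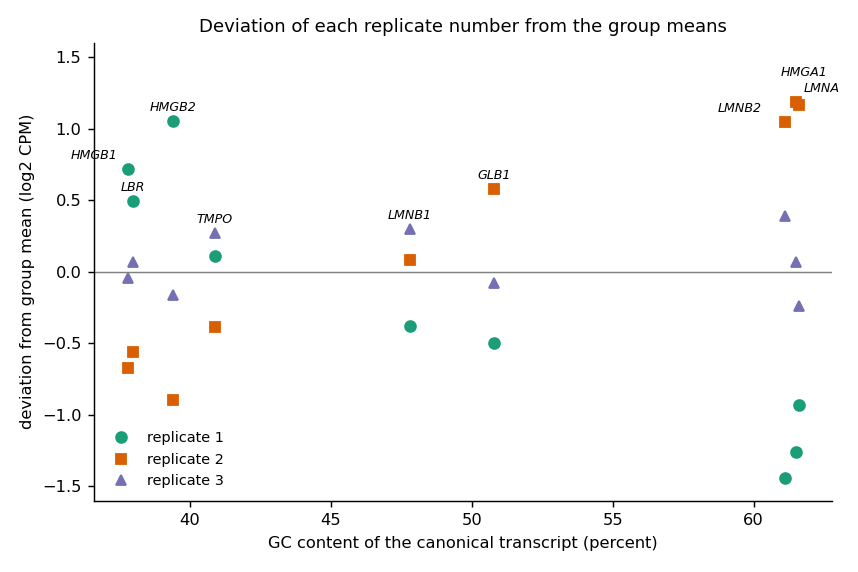
Deviation of each replicate number from the group means in log2 CPM (vertical axis, mean over the DMSO and SAL library) against the GC content of the canonical transcript in percent (horizontal axis) for the 9 tested genes. Replicate 1 is high for the GC-poor genes and low for the GC-rich ones, replicate 2 is the reverse, and LMNB1 and TMPO span the narrowest ranges, 0.68 and 0.66.

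Among other genes of the nuclear envelope, 4 of 20 partners of the lamina were lower and 0 were higher with edgeR (2 higher at an unadjusted p under 0.05, and 0 higher with DESeq2), and their median change was -0.15 on the log2 scale. The 4 were NRM at -1.004 (nurim, an inner membrane protein), TMEM194A at -0.67 (another inner membrane protein), SYNE2 at -0.45 (nesprin-2, which links the envelope to the cytoskeleton) and SUN1 at -0.34 (its partner across the lumen). Of these, NRM fell from 7.43 ± 3.27 CPM to 3.61 ± 0.92 CPM (SD, n = 3). Its groups barely failed to overlap, with 4.386 CPM in SAL library 2 against 4.409 CPM in DMSO library 3. Every SAL library lay below every DMSO library for 3.73% of all genes tested. The call of NRM was lost with DESeq2 (adjusted p = 0.051) and in edgeR without replicate 1 or 3 (adjusted p = 0.0863 and 0.0515). With DESeq2 2 of the 20 were called lower, and without replicate 3 none. In other edgeR fits some partners were called higher, 2 without replicate 1, 1 with no filter and 1 with the GC and length correction.

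The 5 genes of lamin tail processing, which attach the lipid anchor or remove it together with the end of prelamin A, did not pass the threshold in either direction with edgeR, with DESeq2 or at an unadjusted p under 0.05 in either tool. Their log2 fold changes lay between -0.19 for FNTB, a farnesyltransferase subunit, and 0.09 for RCE1, a protease of the same route. ZMPSTE24, which cleaves prelamin A, had 0.06 (edgeR adjusted p = 0.737).

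Of 28 nuclear pore genes, 14 were lower and 1 was higher, and the median log2 fold change was -0.31. NDC1, which anchors the pore in the membrane, fell by 0.82 on the log2 scale (edgeR adjusted p = 1.84e-05). NUP160 and NUP107 of the Y-shaped outer complex fell by 0.60 and 0.49, NUP210 of the membrane ring fell by 0.62, and NUP155 and NUP93 of the inner ring fell by 0.57 and 0.50. RANBP2, on the cytoplasmic side of the pore, was the single gene called higher, at 0.41. Without replicate 3, 2 of the 28 were called lower, although 13 were lower at an unadjusted p under 0.05.

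Of 11 tested genes for other high-mobility-group box or nucleosome-binding HMG proteins, 4 were lower and 1 was higher, and the median was -0.07. HMGN2, a nucleosome-binding protein, fell from 51.7 ± 7.60 CPM to 27.9 ± 5.72 CPM (SD, n = 3), with a log2 fold change of -0.89 (edgeR adjusted p = 4.17e-05) and groups that did not overlap. TFAM, which packages mitochondrial DNA, fell by 0.48, HMGB3 by 0.42 and SSRP1, a subunit of the histone chaperone FACT, by 0.29. HMG20B, a subunit of a histone demethylase complex, rose by 0.82. Without replicate 3, 1 gene was called lower, and SSRP1 was also not called with DESeq2 (adjusted p = 0.102) or with non-robust dispersions (edgeR adjusted p = 0.0506). HMGB4 was at 0 in every library.

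Of 16 genes for heterochromatin proteins, 4 were lower and 1 was higher, with a median of -0.11. ASF1B, a histone chaperone, fell by 0.91 on the log2 scale, SUV39H2, a histone H3 lysine 9 methyltransferase, by 0.51, CBX5, which encodes heterochromatin protein 1 alpha and a ligand of LBR, by 0.44, and the corepressor TRIM28 by 0.30. EHMT1, another methyltransferase of the same lysine, rose by 0.45. Without replicate 3, 1 gene was called lower and 0 higher (4 and 1 at an unadjusted p under 0.05), and with DESeq2 TRIM28 was not called (adjusted p = 0.0744).

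Around GLB1, 7 of 25 tested genes for lysosomal hydrolases and their partners were higher and 1 was lower, with a median of 0.20. ARSA (arylsulfatase A) rose by 0.96 on the log2 scale, GALNS (a sulfatase of keratan sulfate) by 0.79, MAN2B1 (alpha-mannosidase) by 0.50, HEXA (a beta-hexosaminidase subunit) by 0.47 and PSAP (prosaposin) by 0.40, whereas ARSB, another arylsulfatase, fell by 0.37. The proteins that form a complex with beta-galactosidase in the lysosome are encoded by CTSA and NEU1, which were chosen for this relation after their values were seen. CTSA had 0.15 (edgeR adjusted p = 0.609) and NEU1 rose by 0.40 (edgeR adjusted p = 0.0451), with pairs at 0.75, 0.09 and 0.43. The count of higher genes was 3 with DESeq2, 4 without replicate 2 and 0 without replicate 3, when 4 were higher at an unadjusted p under 0.05. The count of lower genes was 0 with DESeq2, with no filter and without replicate 2 or 3, so that ARSB was not called there.

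Proliferation markers fell in the same libraries as these members. All 12 tested were lower, with a median of -0.72 and values between -1.02 for TOP2A (topoisomerase II alpha) and -0.49 for MKI67, and with 0 higher at an unadjusted p under 0.05 with edgeR or DESeq2. BIRC5, CCNB1, MCM2, PCNA and AURKA fell by 1.01, 0.80, 0.75, 0.69 and 0.78. Without replicate 3, 9 of the 12 were called lower, and without the replicate block 0 of the 12. The summed level of the 12 was 2742, 1665 and 2426 CPM in DMSO and 1766, 1072 and 1431 CPM in SAL and each SAL library was lower than its DMSO partner. The part of proliferation in the fall of LMNB1, LMNB2, TMPO, LBR and HMGB1 was not tested. Of the 8 markers of luminal cells, 5 were higher and 0 were lower (0 at an unadjusted p under 0.05 with edgeR or DESeq2), among them KRT8 at 2.45, TMPRSS2 at 2.07, KRT18 at 1.71 and KLK2 at 0.77, and their part in the rise of LMNA was not tested.

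**Figure D5:**
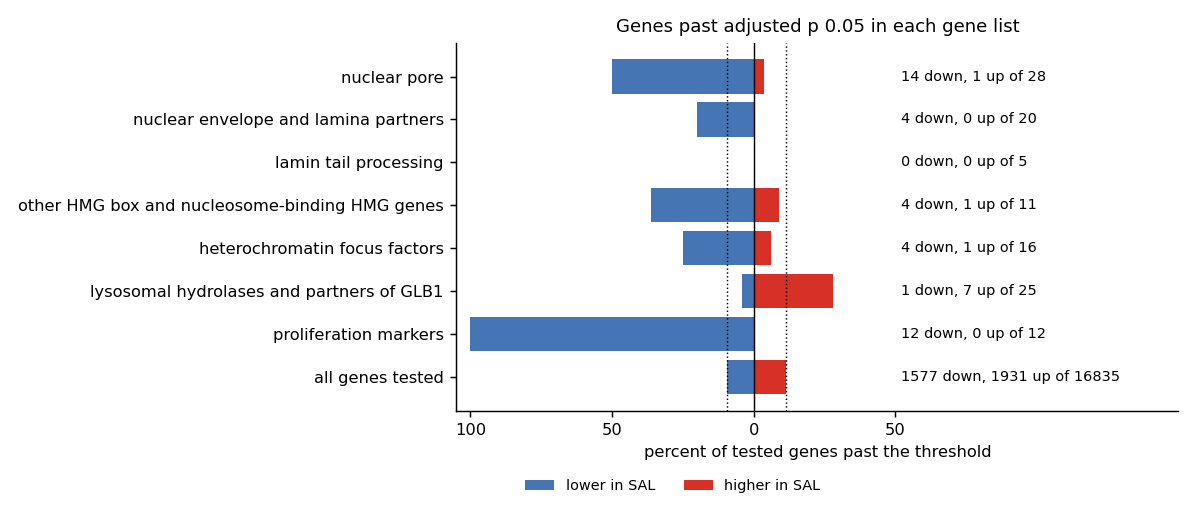
Percent of the tested genes of 7 lists and of all genes that were called lower (blue, left of 0) or higher (red, right of 0) at an adjusted p of 0.05, with the counts at the right; dotted lines mark 9.37% and 11.5%, the shares over all 16835 genes. Proliferation markers (12 of 12) and nuclear pore genes (14 of 28) extend farthest to the left and lysosomal genes (7 of 25) farthest to the right among the lists drawn, which leave out the members, the cell type markers and the regulators of HMGA2 mRNA.

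Over the 6 libraries, the genes whose log2 CPM was most like that of LMNB1 by Pearson correlation were SPIRE1 (r = 0.9997), DACH1 (r = 0.9968) and CTPS1 (r = 0.9931). SPIRE1 encodes an actin nucleator, DACH1 a transcription cofactor and CTPS1 an enzyme of CTP synthesis. They had log2 fold changes of -0.53, -1.59 and -0.35. These values share the treatment, the replicate numbers and the depth of 6 libraries with LMNB1 and were chosen out of all genes tested, so that they are a description. Among the members, LMNB1 had r = 0.68 with LMNB2, 0.66 with TMPO, 0.27 with LMNA, -0.14 with HMGB1 and -0.34 with HMGB2. Over the same libraries, HMGB1 had 0.97 with HMGB2 and 0.94 with LBR, and LMNA had 0.96 with HMGA1 and 0.93 with GLB1. LMNA also had -0.975 with HMGB1, and 0.88 with LMNB2 although LMNA was called higher and LMNB2 lower. These r values include the differences between replicate numbers as well as those between treatments, which were not separated.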

How the data were processed

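Total RNA of C4-2 cells was sequenced in 6 libraries, 3 with DMSO and 3 with SAL. After trimming, the authors aligned 1 mate per fragment (the first) against hg19 with TopHat2 2.1.0 and assigned it to exons of gencode v19 genes with HTSeq 0.11.2, ignoring strand although the kit keeps it. Their raw counts were deposited without normalization. Reads that map to several places were left out of the counts, which lowers the counts of genes with near-identical copies. Between 24.0% and 48.3% of all tallies fell on no exon.

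Groups and replicate numbers come from the labels. From the counts, 523 rRNA symbols were removed, filterByExpr left 16835 of 55765 symbols, and the treatments were compared in edgeR 4.0.16 (R 4.3.3) by its quasi-likelihood test with TMM scaling, robust dispersions, the replicate number as a block and Benjamini-Hochberg adjustment over all genes tested. An adjusted p under 0.05 was a call. The same-numbered libraries deviated together from the group means, with correlations across genes of 0.886, 0.856 and 0.739, and the pairing comes from the numbers in the labels and the paired test in the methods. DESeq2, named by the authors, was an alternative (DESeq2 1.42.0). Standard errors were derived from the log2 fold change and its F statistic. Within-pair differences use log2 CPM (prior count 2). The fit was tested on simulated data.

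Members are named always. Of each other list, up to 6 called genes with the smallest adjusted p are named, and the 3 genes most correlated with LMNB1. Some called list genes are not reported here. The members and the lists were chosen with earlier results of these data known. Gene positions, lengths and GC content come from GRCh37 and the lifted GENCODE v44 annotation, in which 33529 symbols matched a current name and 1894 an older one. Of the tested genes, 82.2% had a GC content and length for the correction, an alternative chosen after seeing the data, as was the merged exon length. The alternatives were no block, DESeq2, its size factors in edgeR, rRNA genes kept, a minimum of 10 counts per library or no filter, non-robust dispersions, pseudogene rows summed into the member, each replicate number left out, and pseudocounts of 0.1 and 2 for the ratios. The precision is limited by 6 libraries.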

Additional observations from a re-analysis of the deposited data

How the results depend on the processing

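Of 47 named genes under 12 alternatives, none changed direction. LMNB1 and TMPO kept their calls under every alternative except the fit without the replicate block. Without the block, 21 genes were called in all, 3 lower and 18 higher, and 0 members were called lower and 0 higher. The proliferation markers, the cell type markers and the other gene lists also held 0 calls in either direction. An unadjusted p under 0.05 was reached by 654 genes. For the ratios neither the permutation test nor the paired sign-flip test can reach 0.05 at this size. With DESeq2 and the block, 2240 genes were called, 950 of them lower. In that fit 0 members were higher, and 6 list genes were higher in place of 11. List genes here are those of the lists other than the proliferation and cell type markers. Leaving out both libraries of 1 replicate number gave 1233 to 4398 calls in all, 483 to 1955 lower and 750 to 2443 higher, 2 to 6 members lower and 0 to 2 higher, and 4 to 26 list genes lower and 1 to 13 higher (27 and 11 with all libraries), with the fewest calls without replicate 3. The other alternatives kept each of these counts within 1.5 times its value. Of the 47 genes, 44 were called with all libraries and the block, and each of these 44 lost the call without the block. Without replicate 3, 26 of them lost it, and with DESeq2, 9. The cause was not tested.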

Other observations

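Among the 42 pseudogene rows of HMGB1, HMGB1P24 was higher in SAL in each pair after scaling, with 256, 98 and 232 counts in DMSO and 327, 144 and 298 in SAL, a log2 fold change of 0.30 (edgeR adjusted p = 0.102). The pseudogene rows of HMGA1 held 6.57% to 14.2% of the counts of HMGA1 and its pseudogenes, and those of HMGB2 4.31% to 7.02%. No pseudogene rows were found by this rule for LMNB1, LMNB2, LMNA, LBR, HMGA2 and GLB1. The paralogs of GLB1 had log2 fold changes of -0.04 for GLB1L (edgeR adjusted p = 0.943) and 0.08 for GLB1L2 (edgeR adjusted p = 0.748). All of these genes were chosen after their values were seen.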
